A study of Mus musculus with 8 samples.

Results

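The thick ascending limb was examined through 7 genes that serve its salt transport or mark its cells: Slc12a1, Kcnj1, Bsnd, Fxyd2, Casr, Umod and Egf. They were taken by name from the array annotation, and all 7 were among the 19593 features tested, of which 13570 carried a gene name. Each was read by 1 probe whose signal was well above background on all 8 arrays. Kidney RNA came from 4 NEKO mice and 4 littermate controls aged 8 weeks, on a mixed background of 129Sv/J and C57BL/6J, and each group held 2 females and 2 males. NEKO mice carried Keap1-/-::Nrf2Flox/Flox::K5-Cre. Of the controls, 3 were K1Cre (Keap1+/-::Nrf2Flox/Flox::K5-Cre) and 1 female was K1, which lacks the Cre (Keap1+/-::Nrf2Flox/Flox). All 8 mice thus had floxed Nrf2, every control had lost 1 Keap1 allele, and the Keratin5 promoter directs Cre to squamous epithelium, so that Nrf2 is removed there and not by design in the tubule. The comparison addressed whether limb genes differ in kidneys that lack Keap1, in a study of how these mice concentrate urine.

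The thick ascending limb reabsorbs sodium and chloride without water. In this way it dilutes the tubular fluid and feeds the osmotic gradient of the medulla, against which the collecting duct later recovers water. Salt enters through the apical cotransporter NKCC2, potassium returns to the lumen through ROMK, chloride leaves at the basolateral side through chloride channels that carry the subunit barttin, and Na,K-ATPase drives the whole process. Loss of NKCC2, ROMK or barttin causes the salt wasting of Bartter syndrome in humans. The paper reports that NEKO mice could still dilute their urine after water loading, and it sets their high urine volume apart from this syndrome. It also describes bilateral hydronephrosis in NEKO mice from the age studied here, whose part in the levels below was not tested.

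The promoters of the 2 members that passed the test within the males, Egf and Kcnj1, are printed first, and that of Umod is added because it held the only match to a searched motif. RefSeq starts on GRCm38.p6 were found for 5 of the 7 members, in 6 windows that run from 250 bases before to 50 bases after a start. The Egf window printed is chr3:129755273-129755572 on the minus strand, that of Umod is chr7:119479213-119479512 on the minus strand, and that of Kcnj1 is chr9:32393735-32394034 on the plus strand. Egf has a second window, chr3:129725037-129725336 on the minus strand, which was searched and is not printed. Capitals mark the motif match.
Egf: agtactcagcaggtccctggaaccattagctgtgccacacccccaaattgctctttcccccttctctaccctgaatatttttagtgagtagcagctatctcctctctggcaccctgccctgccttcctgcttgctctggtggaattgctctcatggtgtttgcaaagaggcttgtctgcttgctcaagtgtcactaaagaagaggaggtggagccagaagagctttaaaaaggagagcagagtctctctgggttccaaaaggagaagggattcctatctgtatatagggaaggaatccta
Kcnj1: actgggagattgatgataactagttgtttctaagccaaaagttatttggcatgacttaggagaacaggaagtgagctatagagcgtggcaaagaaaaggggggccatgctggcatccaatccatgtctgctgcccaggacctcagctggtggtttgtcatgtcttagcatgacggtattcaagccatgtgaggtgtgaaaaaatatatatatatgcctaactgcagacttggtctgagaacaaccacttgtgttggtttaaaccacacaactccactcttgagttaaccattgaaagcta
Umod: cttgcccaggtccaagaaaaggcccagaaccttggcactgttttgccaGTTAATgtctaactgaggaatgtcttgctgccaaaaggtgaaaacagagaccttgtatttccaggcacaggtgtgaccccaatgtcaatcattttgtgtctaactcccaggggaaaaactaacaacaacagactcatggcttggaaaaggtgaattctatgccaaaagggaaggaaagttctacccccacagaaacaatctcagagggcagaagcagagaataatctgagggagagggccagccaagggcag
The core of the antioxidant response element bound by Nrf2 (TGACNNNGC, either strand) was in 0 of the 6 member windows and in 12.4% of all 32851 windows. The letters GTTAAT, a partial site of the kidney factor HNF1, were in 1 of 6, at -202 relative to the Umod start, and in 7.1% of all windows. The letters AAGGTCA, the extended core site of the oestrogen-related receptors, and the TATA box letters TATAAA were in 0 of 6 member windows each, against 4.72% and 13.6% of all. These searches describe letters in 300 bases and say nothing of binding.

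None of the 7 genes passed the test between NEKO and control kidneys (limma with sex as a term, Benjamini-Hochberg adjusted p under 0.05 over all features), where 0.225% of features were called. With the effect averaged over the sexes in a fit that also held their interaction, a choice made after the values were seen, Egf and Kcnj1 passed (limma adjusted p = 0.030 and 0.046), as did 2.62% of features. In 5 of 7 the NEKO mean was the lower, and the log2 difference was below 0 in 11007 of all 19593 features. Egf and Kcnj1 were the members with an unadjusted p under 0.05, a level that 18% of all features reached. The median log2 difference (NEKO minus control) was -0.20 over the 7 genes and -0.031 over all features. The 2 groups overlapped in all 7 genes, whereas they did not overlap in 9.28% of features. In 5 of 7 genes (Slc12a1, Kcnj1, Casr, Umod and Egf) both NEKO males were below each of the other 6 mice, an arrangement found in 9.92% of features and looked for after the values were seen. All females were hybridized on 1 slide and all males on another, so that sex and slide cannot be told apart. In whole kidney, fewer cells of a type and less RNA per cell cannot be told apart either.

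**Figure D1:**
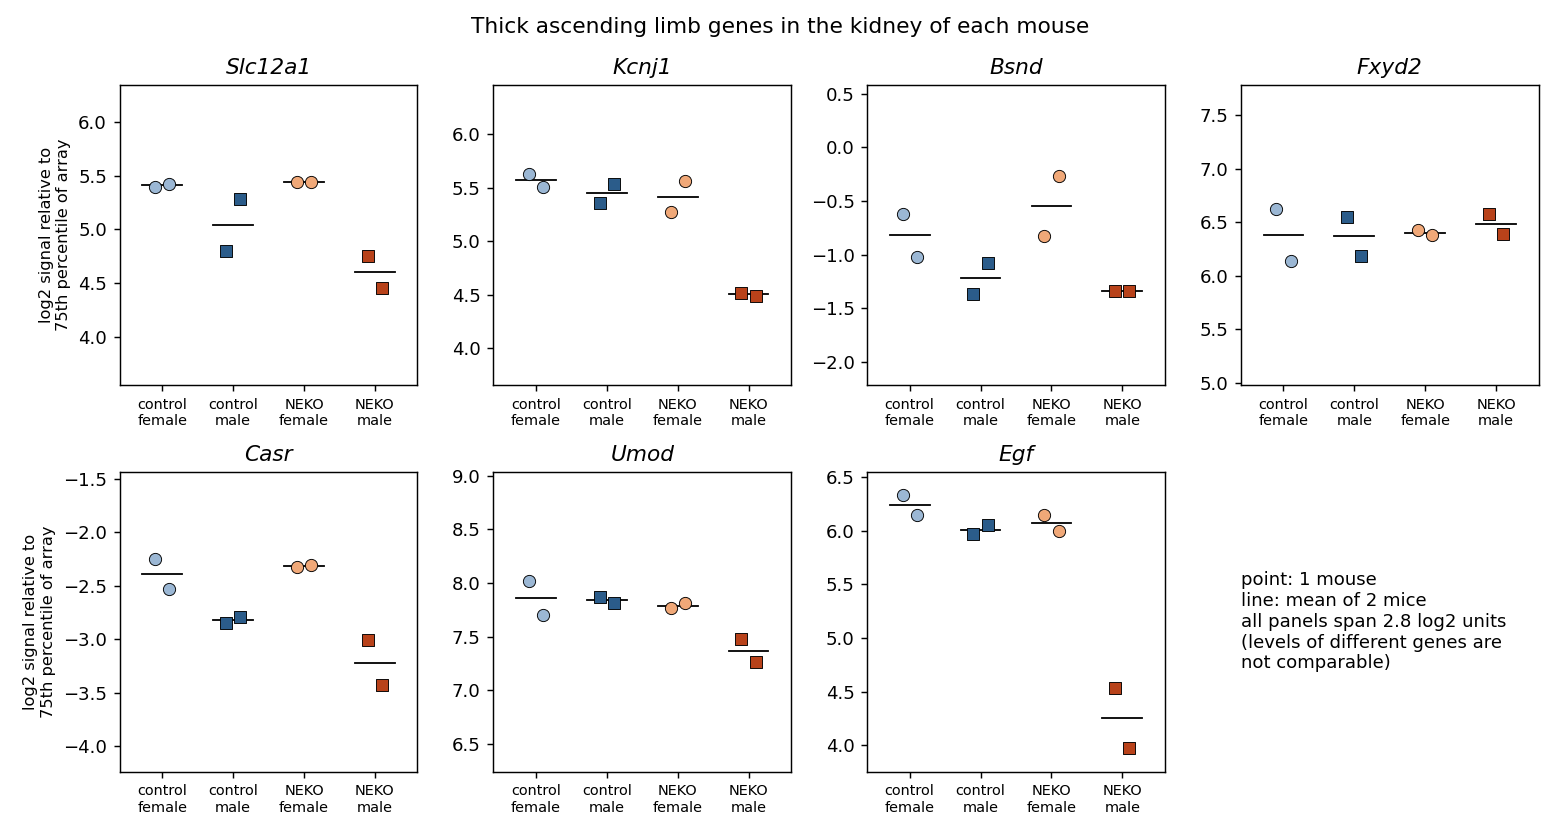
Level of each of the 7 genes in each mouse, as log2 signal less the array's own 75th percentile (y axis), by genotype and sex (x axis). Points are single mice and lines are means of 2 mice. Every panel spans the same number of log2 units, and the NEKO males are lowest in Egf, at 4.53 and 3.97, and in Kcnj1, at 4.52 and 4.49.

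Slc12a1 encodes NKCC2, the target of loop diuretics. Levels are given as log2 signal less the 75th percentile of all non-control probes on that array. By this measure its log2 level was 5.39 and 5.43 in the control females, 4.80 and 5.28 in the control males, 5.44 and 5.45 in the NEKO females, and 4.75 and 4.45 in the NEKO males. The females of both genotypes lay together, and the lower control male came close to the higher NEKO male. The control mean was 5.23 ± 0.29 (SD, n = 4) and the NEKO mean 5.02 ± 0.50 (SD, n = 4). The log2 difference was -0.20 (SE 0.15, 95% confidence interval -0.56 to 0.16, limma adjusted p = 0.501), and -0.058 when control male 7 was left out.

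Kcnj1 encodes ROMK, the apical potassium channel that recycles potassium for NKCC2 and also secretes it in the collecting duct. Its log2 level was 5.63 and 5.51 in the control females, 5.36 and 5.53 in the control males, 5.27 and 5.56 in the NEKO females, and 4.52 and 4.49 in the NEKO males. The NEKO females lay close to the controls, and both NEKO males were clearly lower than every other mouse. The means were 5.51 ± 0.11 in controls and 4.96 ± 0.54 in NEKO mice (SD, n = 4 each). The log2 difference over both sexes was -0.55 (SE 0.17, 95% interval -0.96 to -0.14, limma adjusted p = 0.194).

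Bsnd encodes barttin, the subunit that basolateral chloride channels need at the cell surface. Its log2 level was -0.62 and -1.02 in the control females, -1.37 and -1.07 in the control males, -0.83 and -0.27 in the NEKO females, and -1.34 in both NEKO males. No genotype stood apart in either sex, and the highest and the lowest mouse were a NEKO female and a control male. The log2 difference was 0.08 (SE 0.17, 95% interval -0.32 to 0.48, limma adjusted p = 0.827).

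Fxyd2 encodes the gamma subunit of Na,K-ATPase, which tunes the affinity of the pump. Its log2 level was 6.62 and 6.14 in the control females, 6.55 and 6.18 in the control males, 6.42 and 6.38 in the NEKO females, and 6.58 and 6.39 in the NEKO males. The 4 NEKO mice all fell inside the range of the controls. The log2 difference was 0.07 (SE 0.13, 95% interval -0.25 to 0.39, limma adjusted p = 0.805), and this gene had the smallest span of the 7 over the 8 mice, at 0.482.

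Casr encodes the calcium-sensing receptor, which restrains salt and calcium uptake in the limb when blood calcium is high. Its log2 level was -2.25 and -2.53 in the control females, -2.85 and -2.79 in the control males, -2.32 and -2.31 in the NEKO females, and -3.01 and -3.43 in the NEKO males. Males were below females within both genotypes, and the NEKO males were the lowest. The log2 difference between genotypes was -0.16 (SE 0.14, 95% interval -0.50 to 0.18, limma adjusted p = 0.572). It was -0.030 when NEKO male 6 was left out and -0.26 when control female 8 was. Casr had the dimmest signal of the 7 genes, and with normexp background correction its log2 difference was -0.047.

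Umod encodes uromodulin, the most abundant protein of normal urine and a product of the limb. Its log2 level was 8.01 and 7.70 in the control females, 7.87 and 7.81 in the control males, 7.76 and 7.82 in the NEKO females, and 7.47 and 7.26 in the NEKO males. The NEKO females lay within the controls and the NEKO males below them. The log2 difference was -0.27 (SE 0.12, 95% interval -0.56 to 0.016, limma adjusted p = 0.297).

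Egf encodes the precursor of epidermal growth factor, which distal tubule cells shed into urine and which also acts on magnesium uptake. Its log2 level was 6.33 and 6.15 in the control females, 5.97 and 6.06 in the control males, 6.15 and 6.00 in the NEKO females, and 4.53 and 3.97 in the NEKO males. The other 6 mice lay close together and the NEKO males far below them. The Egf probe was printed in 10 spots on each array, whose SD ranged from 0.022 to 0.086 across mice. This is the scatter of the measurement within an array and holds no variation between mice. The highest single spot in a NEKO male was 4.61, and the lowest in any other mouse was 5.86. Over both sexes the means were 6.13 ± 0.16 in controls and 5.16 ± 1.08 in NEKO mice (SD, n = 4 each), with a log2 difference of -0.96 (SE 0.33, 95% interval -1.74 to -0.19, limma adjusted p = 0.208).

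An exact permutation test over all 70 ways of splitting the 8 mice, two-sided and taken gene by gene, gave p from 0.114 for Kcnj1 to 0.771 for Bsnd, with 0.200 for Egf. These splits do not keep the sexes balanced and so leave out the sex and slide term that the limma fit holds. The permutation p is not adjusted, and the unadjusted limma p was 0.016 for Kcnj1, 0.022 for Egf and 0.660 for Bsnd. After adjustment over all features, the limma p for the same members ran from 0.194 to 0.827.

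The genotype effect was then taken within each sex, a choice made after the values were seen, from a fit in which the 4 groups of 2 mice shared 1 estimate of the spread. In the females no member passed the test (0.0612% of features did), and the log2 differences lay between -0.17 for Egf and 0.27 for Bsnd. For Egf the interval in females was -0.64 to 0.31. In the males Egf and Kcnj1 passed, so that 2 of 7 members fell, where 4.27% of features were called and 1.55% were called lower. Egf was 3.38-fold lower in NEKO than in control males (log2 difference -1.76, SE 0.20, 95% interval -2.24 to -1.28, limma adjusted p = 0.010). Kcnj1 was 1.92-fold lower (log2 difference -0.94, SE 0.14, 95% interval -1.27 to -0.61, limma adjusted p = 0.022). The male differences of Umod (-0.47, limma adjusted p = 0.140), Slc12a1 (-0.44, 0.262) and Casr (-0.40, 0.268) were of 1 sign and did not pass. Bsnd at -0.12 and Fxyd2 at 0.12 lay nearest to 0 in the males.

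These calls in the males rest on 2 mice against 2. When control male 4 was left out, neither gene passed (limma adjusted p = 0.065 for Egf and 0.088 for Kcnj1). Without NEKO male 5, NEKO male 6 or control male 7, Kcnj1 did not pass (0.071, 0.104 and 0.086) and Egf did (0.017, 0.031 and 0.049). In these fits the lone mouse is assumed to vary like the others, and the log2 difference in males stayed between -2.04 and -1.48 for Egf and between -1.03 and -0.86 for Kcnj1.

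**Figure D2:**
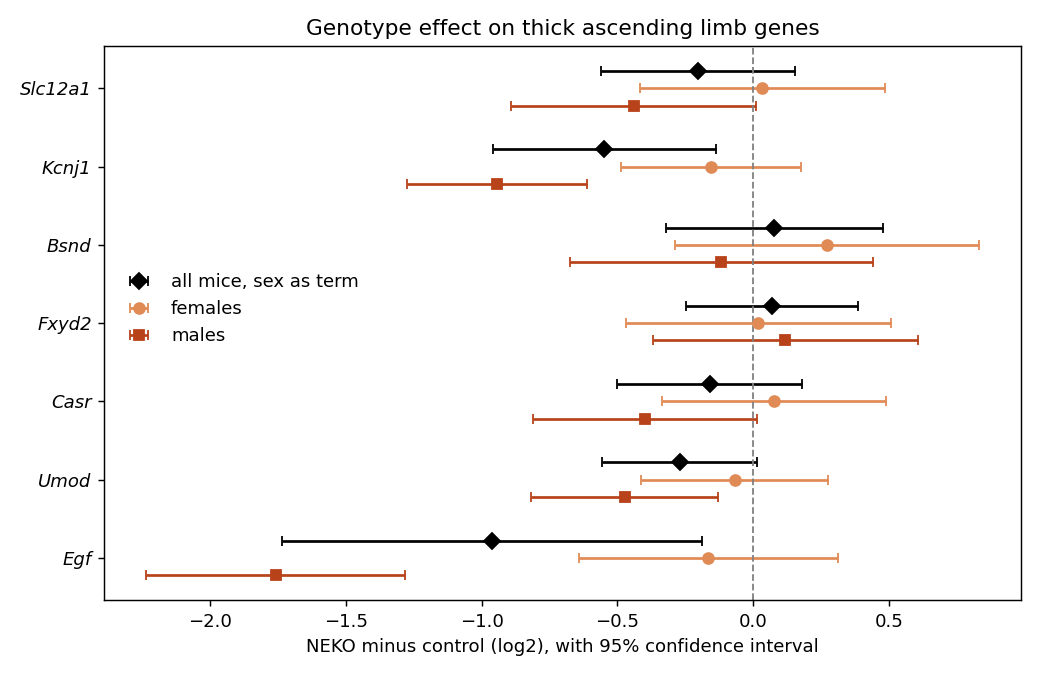
Log2 difference between NEKO and control mice (x axis) for each of the 7 genes (y axis), over all 8 mice with sex as a term, in females and in males, with 95% confidence intervals. The male intervals of Egf, Kcnj1 and Umod exclude 0, every female interval includes it, and Umod does not pass after adjustment.

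Whether the male effect differed from the female effect was tested as the interaction of genotype and sex. No member passed over all features, where 0.0153% were called. The male effect was lower than the female one by -1.59 for Egf (SE 0.28, 95% interval -2.27 to -0.92, limma adjusted p = 0.130) and by -0.79 for Kcnj1 (SE 0.19, 95% interval -1.26 to -0.32, limma adjusted p = 0.202). Both had an unadjusted p under 0.05 (0.0011 and 0.0060), as did 10.5% of features, and 3.67% of features did so with the male effect the lower. The other 5 members had interaction estimates from -0.47 to 0.10, and limma adjusted p from 0.562 to 0.944.

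The level in males was also set against that in females, with genotype as a term. The log2 difference (male minus female) was -1.03 for Egf (limma adjusted p = 0.145), -0.67 for Casr (0.079), -0.61 for Slc12a1 (0.095), -0.60 for Bsnd (0.116), -0.52 for Kcnj1 (0.160), -0.22 for Umod (0.349) and 0.036 for Fxyd2 (0.904). None of the 7 passed the test of this term, where 0.786% of features did. Among controls the male mean was lower than the female one by -0.43 for Casr and -0.40 for Bsnd, and by -0.02 for Umod. In NEKO mice the corresponding values were -0.90, -0.79 and -0.42, and for Egf -1.82 against -0.23 in controls.

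Of the other transport proteins of the limb, 12 genes are reported, all of them tested and 0 called between genotypes. Their median log2 difference was -0.055. Kcnj10, a basolateral potassium channel, had the lowest difference of these, at -0.43 (limma adjusted p = 0.261). Control males stood at 2.13 and 1.95 on the log2 scale and NEKO males at 1.30 and 1.24, while the NEKO females, at 2.07 and 2.49, were level with the controls. The male difference of Kcnj10 was -0.77 (SE 0.17, limma adjusted p = 0.065) and did not pass. Cldn10, which forms the paracellular sodium path, was the gene among them whose groups did not overlap, with controls at 4.41 to 4.67 and NEKO mice at 4.23 to 4.39 (log2 difference -0.23, limma adjusted p = 0.195). Groups did not overlap in 9.28% of all features. Slc12a7, a potassium chloride cotransporter, had the highest difference (0.23, limma adjusted p = 0.246).

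Regulators of NKCC2 (kinases, receptors and trafficking factors) numbered 16 tested of 20, with 0 called between genotypes and a median log2 difference of -0.10. Calcr, the calcitonin receptor, had the lowest fitted difference, -1.07 (limma adjusted p = 0.23), but it was well above background on 3 of 4 NEKO arrays and NEKO male 6 was lowest, at -6.82 against -5.04 to -4.38 in the other NEKO mice. The highest was Avpr2, the vasopressin receptor, at 0.26 (limma adjusted p = 0.40). In the males 1 of 16 passed, beside 4.27% of all features. This gene was Ptger3, a prostaglandin E2 receptor that opposes vasopressin in the limb. It was 1.44 and 1.60 in the control males and 0.27 and 0.16 in the NEKO males (log2 difference -1.31, SE 0.14, limma adjusted p = 0.010). The NEKO females, at 1.34 and 1.68, did not share these low values. Stk39, the SPAK kinase that activates NKCC2, had a log2 difference of -0.35 over both sexes (limma adjusted p = 0.18).

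Of 8 transcription factors of the distal nephron, 8 were tested, 0 were called between genotypes and 1 was called in the males, again beside 4.27% of all features. That gene was Esrrb, an orphan nuclear receptor, at 0.40 and 0.96 in the control males and -0.44 and -0.63 in the NEKO males (log2 difference -1.22, SE 0.20, limma adjusted p = 0.033). Over both sexes it was also the lowest of its list, at -0.69 (limma adjusted p = 0.212), and Tfap2b was the highest, at 0.24 (limma adjusted p = 0.40).

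Magnesium handling genes, part of which serve the paracellular route of the limb, numbered 11 tested of 11, with 0 called in either fit and 10 of 11 below 0. Of all 19593 features, 11007 were below 0. Trpm6, the apical magnesium channel of the distal convoluted tubule, was lowest at -0.81 (limma adjusted p = 0.16), and Kcna1 was highest at 0.51 (limma adjusted p = 0.41). Genes of calcium-sensing receptor signalling and of calcium balance gave 0 called of 13, with 6 above 0 and 7 below. The ends of that list were Plcb3 at 0.32 (limma adjusted p = 0.23) and Cldn19 at -0.22 (limma adjusted p = 0.48). Gna11, the G protein alpha subunit that couples to Casr, had groups that did not overlap, at 1.83 to 1.92 in controls and 2.02 to 2.08 in NEKO mice (log2 difference 0.17, limma adjusted p = 0.239). This was 1 of the 13, and 9.28% of all features had no overlap.

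**Figure D3:**
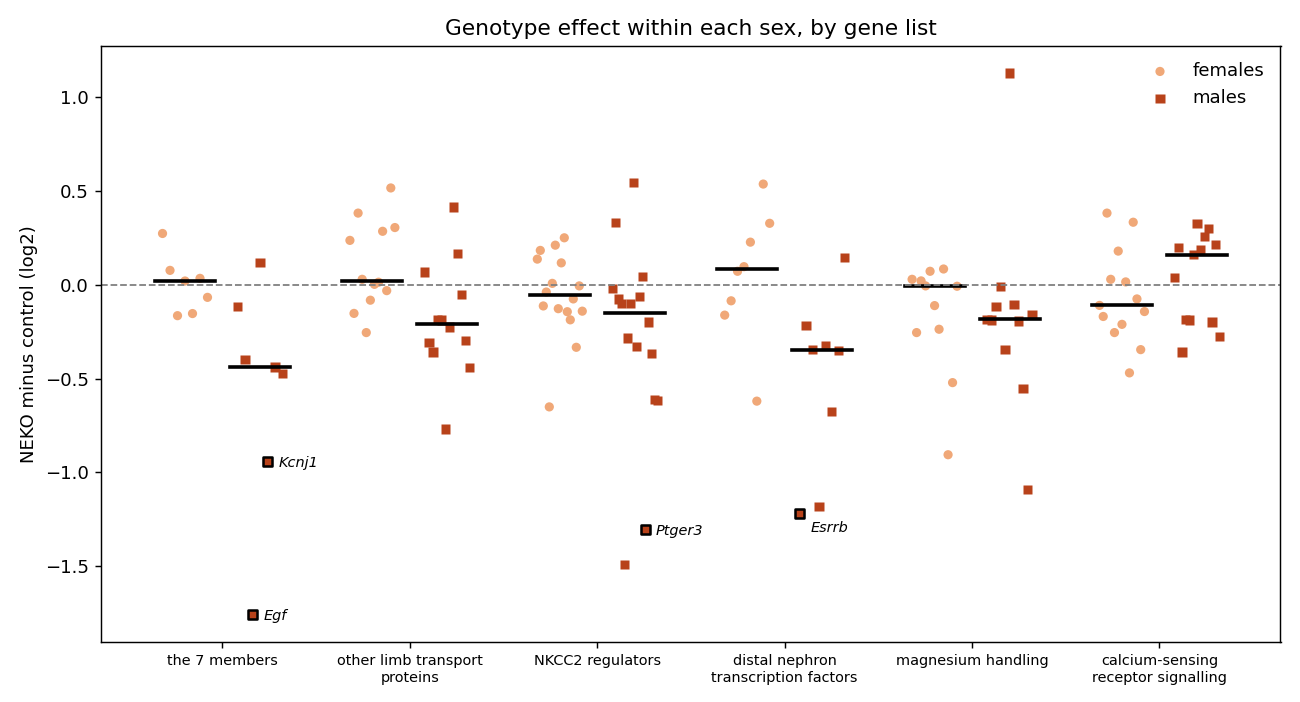
Log2 difference between NEKO and control mice in females and in males (y axis) for the tested genes reported from 6 lists (x axis). Points are genes, bars are list medians, and outlined, named points passed the test within the males: Egf, Kcnj1, Ptger3 and Esrrb, all below 0.

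The gene families of the members gave 0 called between genotypes. Of the SLC12 cotransporters 8 of 8 were tested (median log2 difference 0.046), from -0.57 for Slc12a3, the thiazide-sensitive transporter of the next segment (limma adjusted p = 0.203), to 0.23 for Slc12a7. Of the inward rectifier channels 6 of 14 were tested, from -0.97 for Kcnj12 (limma adjusted p = 0.142) to 0.16 for Kcnj15 (0.530). Of the CLC channels reported, 6 of 7 were tested, from -0.34 for Clcn6 (limma adjusted p = 0.287) to 0.36 for Clcn2 (0.263). Of the pump subunits and FXYD proteins reported, 8 of 12 were tested, from -0.57 for Fxyd6 (limma adjusted p = 0.634) to 0.52 for Fxyd1 (0.306). Fxyd5, which is not a marker of the limb, passed in the males and was higher there (log2 difference 0.96, SE 0.15, limma adjusted p = 0.027).

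For the ligands related to Egf, 5 of 8 were tested and 0 were called. Epgn, an epithelial ligand, had groups that did not overlap, at -0.80 to -0.33 in controls and -2.33 to -1.11 in NEKO mice, and was lowest in a NEKO female (log2 difference -0.92, limma adjusted p = 0.190). No overlap was found in 9.28% of all features. Nrg1 was the highest at 0.28 (limma adjusted p = 0.481). Of the 4 receptors of this family 4 were tested and 0 called, from 0.015 for Erbb4 (limma adjusted p = 0.986, well above background on 3 of 4 arrays in each group) to 0.16 for Erbb2 (0.380). Of 5 genes listed for signalling of the macula densa, the sensor plaque at the end of the limb, 2 were bright enough to test. Nos1, Pappa2 and Ptgs2 were not. The levels are those of whole kidney and cannot be assigned to the macula densa. Avpr1a, a vasopressin receptor, was -0.80 to -0.31 in controls and -1.64 to -1.01 in NEKO mice with no overlap (log2 difference -0.87, limma adjusted p = 0.064), and Ptges was 0.14 (limma adjusted p = 0.54).

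The level over the 8 mice spanned more than 1 log2 unit for Egf (2.36), Casr (1.18), Kcnj1 (1.14) and Bsnd (1.10). For these, the genes with the nearest centred profile were sought among 13512 named genes, by the root mean square of the log2 differences over 8 mice. Among the 3 nearest to Egf were Pdilt (0.139) and Ifit1bl1 (0.161), and Pdilt is the annotated neighbour of Umod in RefSeq. Nearest to Kcnj1 were Brip1 (0.080), Pclo (0.100) and Mrps6 (0.105). Hes1 (0.109), Tinagl1 (0.123) and Map3k5 (0.123) came nearest to Bsnd, and Il31ra (0.065), Col4a6 (0.078) and Sim2 (0.081) to Casr. These distances describe the same 8 arrays and carry no test.

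Markers of other cells were read in the same way, beside 1.55% of all features called lower and 4.27% called in either direction within the males. Of 7 intercalated cell markers 5 were lower in NEKO males by the test within the males. The log2 summed level of the list was 5.23 to 5.67 in controls and 2.78 to 4.69 in NEKO mice. Slc26a4, the brightest of these in controls, weighs most in the control sums. Foxi1 (male log2 difference -0.14, limma adjusted p = 0.819) and Slc4a1 (-1.11, 0.555) did not pass. Slc4a1 was 2.34 in NEKO male 5 and -0.86 in NEKO male 6, against 1.73 to 2.17 in controls. Of 7 principal cell markers 2 were lower (sums 5.88 to 6.18 against 5.40 to 6.01), and of 4 distal convoluted tubule markers 0 passed (5.27 to 6.38 against 5.43 to 6.26). Calb1, the brightest of these 4, weighs most in that sum, and its male log2 difference was 0.20. The male differences of Pvalb, Trpm6 and Slc12a3 were -1.95, -1.09 and -0.91 (limma adjusted p = 0.051, 0.105 and 0.080). Tubular injury markers had 3 of 7 called higher (4.98 to 5.23 against 5.28 to 5.92), and urothelial markers 3 of 5 (0.17 to 1.50 against 1.21 to 2.53). The injury markers called were Krt18, Krt19 and Sox9, while Krt8, the brightest, weighs most in that sum and did not pass. Within the males 1 marker of each list was below 0, Havcr1 of injury (-0.45, limma adjusted p = 0.701) and Upk1a of urothelium (-0.20, 0.817). Proximal tubule markers had 0 of 8 called, with sums of 9.01 to 9.36 in controls and 9.17 to 9.37 in NEKO mice. For the 9 limb markers, which include 6 of the 7 genes, the log2 sums were 8.61 to 8.83 in controls and 7.88 to 8.65 in NEKO mice. Umod, the brightest of these, weighs most in the sum. Within the males 2 of the 9 were called lower, the members Egf and Kcnj1. Over both sexes no marker passed the test. The markers whose groups did not overlap were Slc26a4 (log2 difference -2.07, limma adjusted p = 0.081) and Atp6v1g3 (-0.90, 0.064) of intercalated cells, Krt18 (1.03, 0.153) and Krt19 (1.85, 0.113) of injured tubule, Krt5 (1.85, 0.139) and Upk1a (-0.71, 0.293) of urothelium, and Slc22a8 (0.82, 0.204) and Slc5a2 (-0.43, 0.120) of proximal tubule, beside Cldn10 of the limb. The share of all features without overlap was 9.28%. The lists of podocyte, endothelium and macrophage markers had 0 called in the males. The part of these other cells in the low values of Egf and Kcnj1 was not tested.

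**Figure D4:**
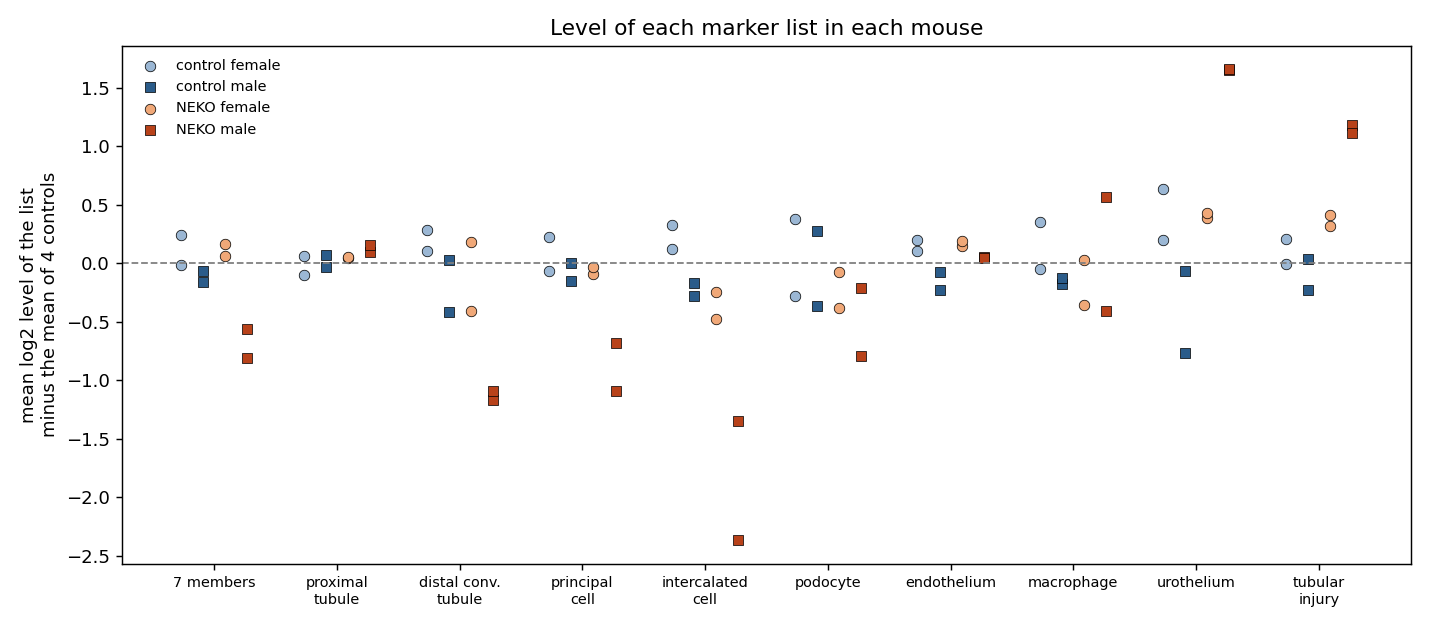
Mean log2 level of each marker list in each mouse, less the mean of the 4 controls (y axis), for the 7 genes and for 9 lists of markers of other cells and of injury (x axis). The NEKO males lie below the other mice in the 7 genes and in distal tubule, principal cell and intercalated cell lists, and above them in the urothelium and injury lists and, by a small margin, in the proximal tubule list (5.83 and 5.88 against at most 5.80 before the control mean is taken off).

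As a check of the labels, the log2 level of Keap1 was 1.84 ± 0.07 in controls and 0.20 ± 0.17 in NEKO mice (SD, n = 4 each), a difference of -1.63 (limma adjusted p = 0.0046). Nqo1, a classic Nrf2 target, was 1.24 to 2.46 in controls and 3.89 to 5.45 in NEKO mice (log2 difference 2.62, limma adjusted p = 0.065). It stood at 3.89 and 4.41 in the NEKO females and at 5.25 and 5.45 in the NEKO males. The Nqo1 difference was 1.69 in females and 3.55 in males, and the interaction with sex did not pass (limma adjusted p = 0.262). The share of probes well above background was 61.8 to 65.7% in controls and 61.9 to 64.7% in NEKO mice, and no array stood apart in it.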

How the data were processed

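Total kidney RNA from 8 mice was labelled with Cy3 and hybridized to 1-colour Agilent mouse arrays. The authors deposited Feature Extraction 10.7.3.1 output with spot intensity: a processed signal (background-subtracted and spatially detrended), a median signal and flags. They also deposited a table of log2 values centred per probe, 99.9% of which lay within 0.01 of values recomputed here, and which served as an alternative. The normalization and model for the arrays are not given in the sources used here.

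Here log2 processed signal less the 75th percentile of non-control probes of the array was used. Outlier spots and controls were left out, spots of a probe were averaged, and features well above background on at least 4 of 8 arrays with values on at least 6 were kept. For genes with several kept probes the brightest entered the test (their mean was an alternative); each member had 1 probe. Probes were named by RefSeq accession (GRCm38.p6 table), which named 26690 of 41174 probes. limma 3.58.1 in R 4.3.3 fitted genotype and sex, and a second model added their interaction. p was adjusted over all features by Benjamini-Hochberg at 0.05. Code was tested on simulated data. Precision is limited by the number of arrays, and each mouse is 1 sample.

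Named were the 7 members, for each list the called genes, the highest and lowest log2 difference (not printed for marker lists) and genes whose groups did not overlap, the 3 nearest profiles for members spanning over 1 log2 unit, and Keap1 and Nqo1 as checks. Stk39 and Fxyd5 were named after their values were seen. So were markers named for weighing most in a list sum or for differing from the rest of their list. Some genes that these lists and this rule would hold are not reported here, and list counts and medians leave them out. Members and lists were chosen with earlier results of these data known. Alternatives covered background correction, normalization, probe filter, probe summary, sex term, variance moderation, array weights, the methods' unequal-variance comparison, the deposited table, a stricter threshold and leaving out each mouse.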

Additional observations from a re-analysis of the deposited data

How the results depend on the processing

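Between genotypes 0 of 7 members were called under each alternative named in the methods. This became 2 (Egf and Kcnj1) within the males and 2 when the genotype effect was averaged over the sexes in the model with the interaction (limma adjusted p = 0.030 and 0.046), both chosen after seeing the data. The log2 difference of Egf was -1.16 to -0.69 and that of Kcnj1 -0.69 to -0.43 when each mouse was left out, with -0.26 to -0.058 for Slc12a1, -0.26 to -0.030 for Casr and -0.37 to -0.19 for Umod. In the males, 0 to 2 members were called when each mouse was left out, and 2 under every other alternative run. Signs turned for members near 0: Bsnd was -0.013 with array weights, -0.12 within the males and -0.073 to 0.18 when each mouse was left out (in the males -0.26 to 0.029). Fxyd2 was -0.017 to 0.18 when each mouse was left out (in the males -0.063 to 0.30, and its interaction -0.14 to 0.34). Within the females, and without the 2 NEKO males, Slc12a1 was 0.034 and Casr 0.076. Over all features, 19 were called higher and 25 lower. With normexp these were 68 and 114, with trend and robust moderation 40 and 52, with array weights 35 and 63, with detection on all 8 arrays 8 and 12, at 0.01 7 and 6, and without the sex term 14 and 16. The methods' comparison gave 0 and 1 after adjustment and 944 and 1268 unadjusted. Averaged over the sexes there were 245 and 268, and 17 to 41 in all when each mouse was left out. The causes were not tested. No paired analysis was possible because the replicate numbers run over both groups and none is shared. With 2 mice per sex and genotype, small differences were not detectable, and slide could not be separated from sex.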
